A study of Zea mays with 8 samples.

Results

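The photosynthesis genes psad1, por, Cab-m7 and fdx2 were read by 4 probe sets, 1 for each gene, on an Affymetrix maize array whose annotation names 1108 genes. A probe set is a group of short probes against 1 transcript. The members were chosen by gene name, with earlier results of these data known. The annotation gave these genes 0 further probe sets, although it names no gene for 16168 probe sets. All 4 member probe sets passed the filter on low signal. RNA came from all above-ground tissue of maize seedlings in the B73 inbred background, cut 11 days after planting, in 8 pools of 12 plants. The 4 wild-type pools and the 4 DpDf (duplicate-deficient) pools are siblings from selfed DpDf plants, told apart with a marker close to the break on chromosome 5. DpDf plants carry 1 normal chromosome 6 and 1 translocation chromosome that adds a further copy of much of chromosome arm 5S and is missing the tip of chromosome arm 6S. They thus hold 3 copies of that part of chromosome 5 and wild-type plants hold 2. Within each replicate number, the wild-type and the DpDf pool come from 1 planting of sibling seed. Replicates 1 and 3 share 1 seed source, and replicates 2 and 4 share the other.

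In the thylakoid membrane, light-harvesting proteins pass absorbed energy to the photosystems. Photosystem I reduces ferredoxin, a soluble iron-sulphur protein, which hands electrons on to NADP+ reduction, cyclic electron flow, nitrite and sulphite reduction and thioredoxin. psad1 encodes the photosystem I subunit PsaD, which forms part of the docking site for ferredoxin, and fdx2 encodes a leaf ferredoxin. In maize, photosynthesis is divided between mesophyll and bundle sheath cells, and the fdx2 protein is known from the bundle sheath. Cab-m7 encodes a chlorophyll a/b-binding protein. The symbol por is used in plants for NADPH:protochlorophyllide oxidoreductase, which carries out the light-dependent step of chlorophyll synthesis.

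By gene number, psad1 (LOC541791) is the 246th of 5209 genes along chromosome 5 in RefSeq gene order, near the tip of the short arm and within the duplicated segment. fdx2 (LOC541619) is the 46th of 4610 genes on chromosome 6, also near the tip of a short arm, and is the outermost chromosome 6 gene tested. The sources used here do not say whether it lies in the missing piece. The gene numbers that the array annotation gives for por and Cab-m7 had no match in RefSeq, so both were placed by name alone. The only RefSeq gene with the synonym por (LOC100381341) is the 1119th on chromosome 5, which is also within the duplicated segment. The only gene with the synonym Cab-m7 (LOC100193833, also lhcb7) is the 4429th on chromosome 6, near the end of the long arm and outside both affected pieces. The annotation gives por no description, and other maize genes carry the names por1 (a porin) and por2 (an aquaporin), so the identity of the por probe set rests on its symbol.

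psad1 and por had higher signal in the DpDf pool of every replicate pair, and fdx2 had lower signal in the DpDf pool of every pair. Of all probe sets tested, 15% were higher in DpDf in every pair and 18.1% lower. From the mean log2 difference, DpDf signal was 1.39-fold wild type for psad1, 1.32-fold for por and 0.703-fold for fdx2, while Cab-m7 differed by 1.08-fold. por passed the threshold (an adjusted p of 0.05 in limma, over 12335 probe sets) in both models fitted, with genotype alone and with the replicate number as a block. psad1 and fdx2 passed it with the replicate block and missed it without, and Cab-m7 missed it in both. With genotype alone, 4.87% of all probe sets were called, 4.03% higher in DpDf and 0.843% lower. With the block 10.2% were called, 6.81% higher and 3.35% lower. In bulk tissue, a lower signal from fewer cells of a type and from less RNA per cell cannot be told apart.

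**Figure D1:**
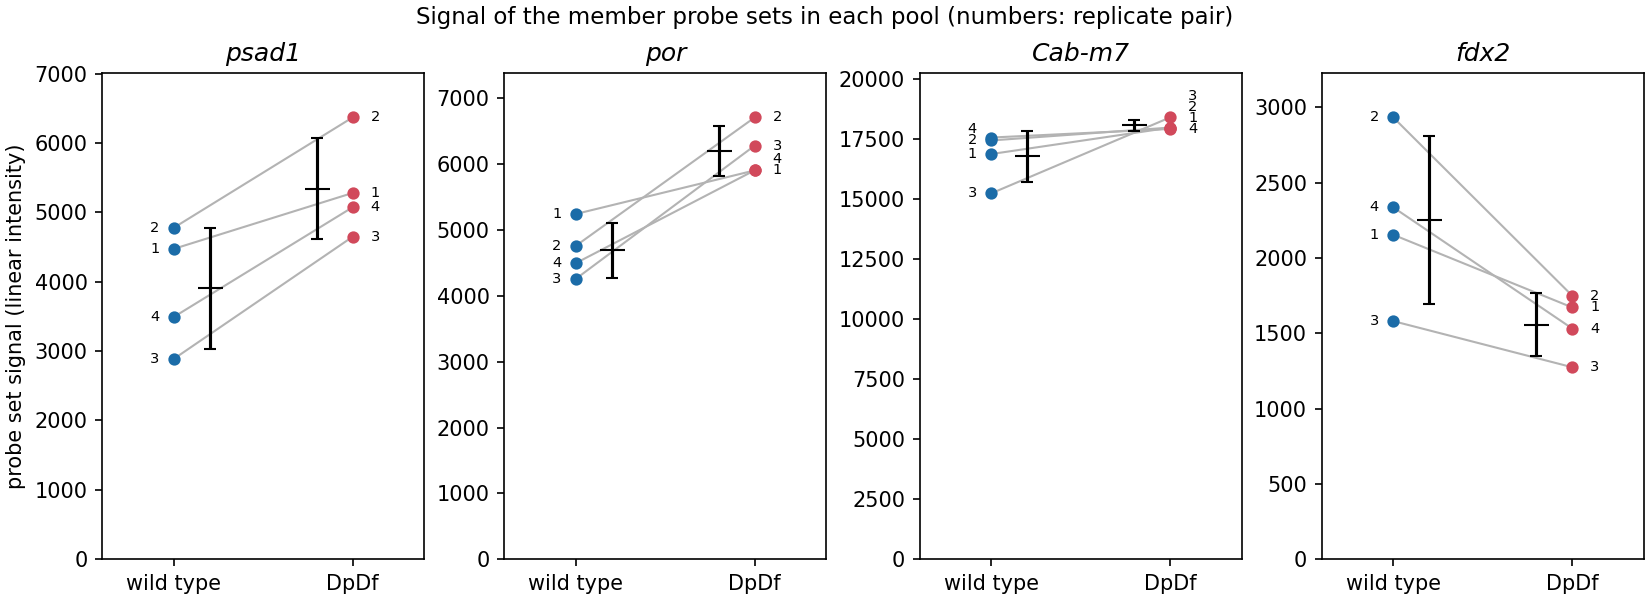
Signal of the 4 member probe sets (linear intensity, vertical axes from 0) in the wild-type (blue) and DpDf (red) pools, with lines joining pools of the same replicate number and bars for the mean and SD of 4 pools. The lines of psad1, por and Cab-m7 all run upward and those of fdx2 all run downward, and wild-type replicate 3 is the lowest wild-type pool for all 4 genes.

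psad1 read 4473, 4777, 2886 and 3491 in wild-type replicates 1 to 4, and 5279, 6368, 4648 and 5073 in DpDf replicates 1 to 4. The groups overlapped, because the lowest DpDf pool (replicate 3) lay below the highest wild-type pool (replicate 2). The means were 3907 ± 874 (SD, n = 4) and 5342 ± 733 (SD, n = 4). Within pairs the DpDf pool was 1.18-fold, 1.33-fold, 1.61-fold and 1.45-fold its wild-type partner. Pools of the same number kept their level: replicate 2 was highest and replicate 3 lowest in both genotypes. The log2 difference, DpDf minus wild type, was 0.47 (SE 0.16, limma adjusted p = 0.156). With the replicate block the difference was the same, its SE 0.071, and its adjusted p 0.00466. A two-sided exact permutation test of the 8 pools, which leaves the pairs aside, gave p = 0.0571.

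por read 5245, 4761, 4259 and 4498 in wild-type replicates 1 to 4, and 5907, 6712, 6284 and 5909 in the DpDf pools. Here the groups did not overlap, which in this direction was also the case for 6.52% of the probe sets tested. Means were 4691 ± 423 (SD, n = 4) in wild type and 6203 ± 383 (SD, n = 4) in DpDf. The pair ratios ran from 1.13-fold in replicate 1, whose wild-type pool was the highest of its group, to 1.48-fold in replicate 3. por rose by 0.41 on the log2 scale (SE 0.071, limma adjusted p = 0.00936; with the block 0.00627). The exact permutation p was 0.0286, the smallest that the 70 assignments of 8 pools can give.

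Cab-m7 was among the brightest probe sets on the array, at rank 14 of 17734. It read 16884, 17450, 15244 and 17571 in the wild-type pools and 17983, 17987, 18410 and 17930 in the DpDf pools. Every DpDf pool lay above every wild-type pool, as was the case for 6.52% of the probe sets tested. For Cab-m7 the margin was narrow in replicates 2 and 4 (1.03-fold and 1.02-fold) and widest in replicate 3 (1.21-fold). Its log2 difference was 0.11 (SE 0.047, limma adjusted p = 0.272; 0.188 with the block; exact permutation p = 0.0286). Without wild-type replicate 3, the lowest pool, the difference was 0.063. Bright probe sets spread less between pools in general. The median SD among wild-type pools was 0.062 for the 50 brightest and 0.13 for all tested, on the log2 scale, and whether a bright signal understates the difference of Cab-m7 was not tested.

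fdx2 read 2153, 2932, 1580 and 2335 in wild-type replicates 1 to 4, and 1671, 1749, 1274 and 1531 in the DpDf pools. Wild-type replicate 3 was lower than 2 of the DpDf pools, so the groups overlapped, whereas 4.8% of probe sets tested had every DpDf pool below every wild-type pool. Within pairs the DpDf pool stood at 0.776, 0.597, 0.806 and 0.656 of the wild-type pool. The means were 2250.0 ± 557 (SD, n = 4) and 1556 ± 209 (SD, n = 4). The log2 difference was -0.51 (SE 0.17, limma adjusted p = 0.163). With the replicate block the SE was 0.078 and the adjusted p 0.00497. The exact permutation p was 0.0857. Without wild-type replicate 3 the difference was -0.67 and passed the threshold with no block (limma adjusted p = 0.0290).

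**Figure D2:**
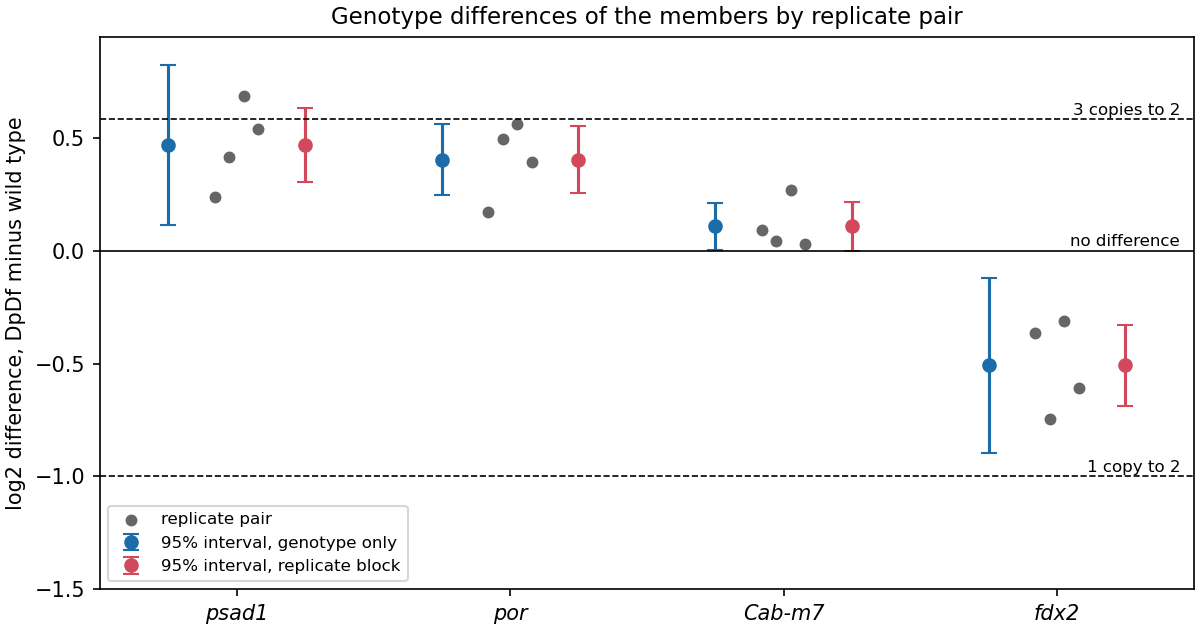
Log2 difference, DpDf minus wild type, for each member (vertical axis), with a grey point per replicate pair and the 95% intervals of limma with genotype alone (blue) and with the replicate block (red); dashed lines mark 3 copies to 2 and 1 copy to 2. The intervals of psad1 and fdx2 narrow with the block, and those of por and Cab-m7 hardly change.

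psad1 and por were set against gene dosage. The ratio of 3 copies to 2 is 0.58 on the log2 scale. The 95% interval of psad1 ran from 0.12 to 0.82 with genotype alone and from 0.31 to 0.63 with the block, and both hold that ratio. With the RNA quality covariate of 3' to 5' signal it ran from -0.19 to 0.79, which holds 0 as well. The interval of por ran from 0.25 to 0.56 with genotype alone and from 0.26 to 0.56 with the block, and both end short of the ratio, although in 6 of 17 alternative settings the interval of por held it. The difference between psad1 and por was not tested. If fdx2 lay in the missing piece, it would have 1 copy to 2, a log2 ratio of -1. The interval of fdx2 ran from -0.89 to -0.12, and from -0.69 to -0.33 with the block, so it lay between that ratio and 0, although with that covariate the interval (-1.27 to -0.39) held the ratio.

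The duplicated segment, taken up to RPL19 near the centromere, held 51 tested genes placed by gene number, psad1 among them, with a median log2 difference of 0.47. The median over 834 placed genes elsewhere was -0.040. The segment median of 0.47 is the value of psad1 itself. psad1 stood in the middle of its 50 segment companions (median 0.45), with 25 below it and 25 above. por had 23 segment genes below it and 28 above. The tested genes on either side of psad1 were arf1, an ADP-ribosylation factor gene, which rose by 0.27 (SE 0.040, limma adjusted p = 0.00394), and sqs1, encoding squalene synthase, which rose by 0.60 (SE 0.057, limma adjusted p = 0.000770). Beside por by name, the neighbours were LOC100037827, at 0.57 (SE 0.19, limma adjusted p = 0.153; with the block, 0.0334), and TIP3-1, a seed tonoplast aquaporin gene, at 0.25 (SE 0.33, limma adjusted p = 0.758).

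Inward from fdx2 on chromosome 6, the next 2 tested genes had smaller differences. The fructokinase gene frk2 was lower in DpDf in all 4 pairs, with a log2 difference of -0.10 (SE 0.051, limma adjusted p = 0.358). arpp1a, an acidic ribosomal protein gene, differed by 0.023 (SE 0.043, limma adjusted p = 0.837). The gene after these, gpc2, was chosen after its values were seen. It was lower in DpDf in all 4 pairs, as were 18.1% of all probe sets tested. Its log2 difference was -0.23 (SE 0.060, limma adjusted p = 0.0664, and 0.0169 with the block). RP-P0, the tested gene after gpc2, differed by -0.087 (SE 0.065, limma adjusted p = 0.549). gpc4, a gene of the same name series on chromosome 5 outside the duplicated segment, differed by -0.41 (SE 0.075, limma adjusted p = 0.0118). No gene was tested on the tip side of fdx2, and its difference from frk2 was not tested.

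**Figure D3:**
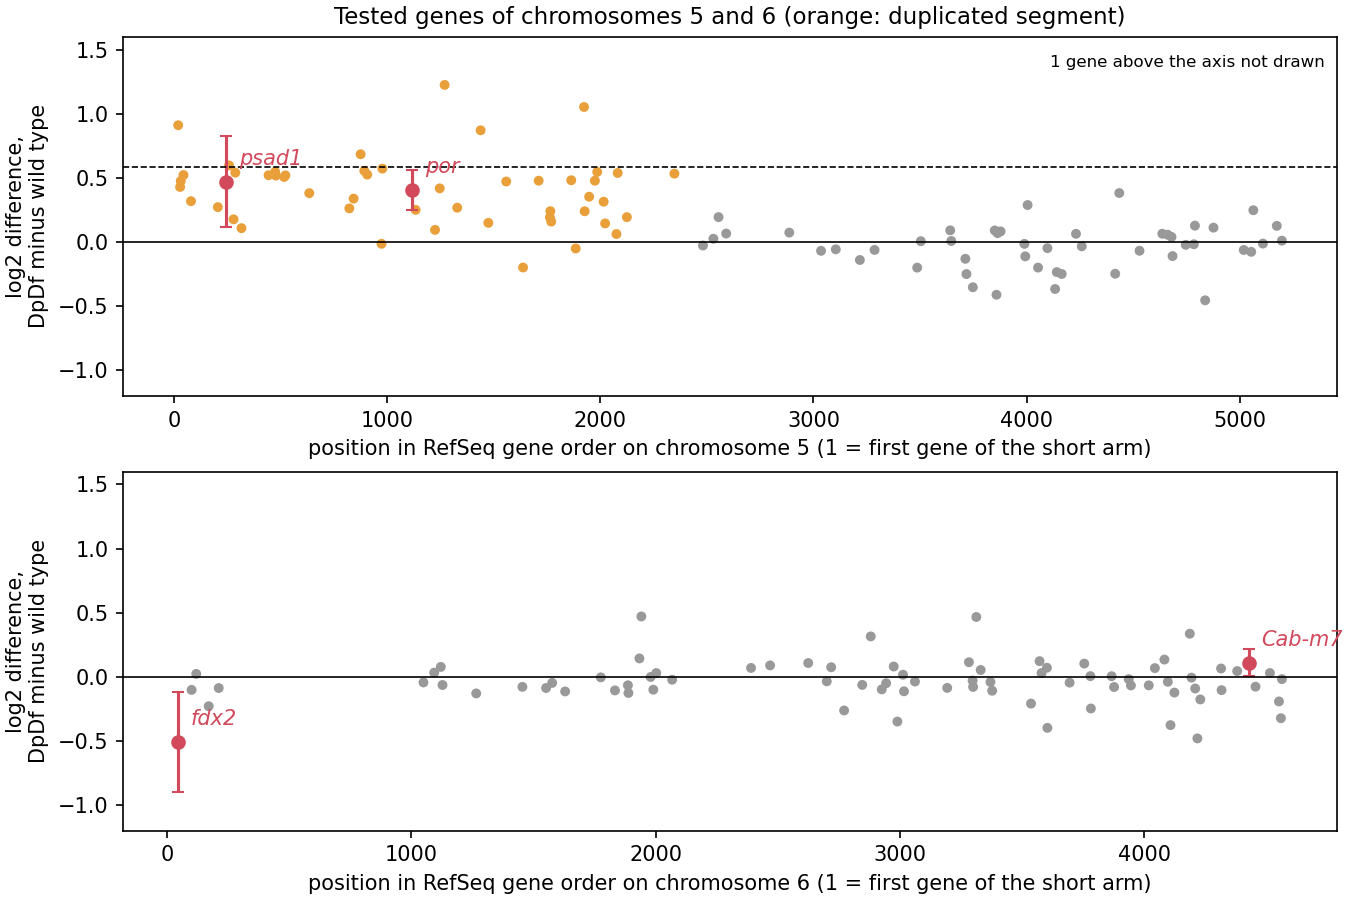
Log2 difference, DpDf minus wild type (vertical axes), of tested genes in RefSeq gene order along chromosome 5 (top) and chromosome 6 (bottom), with duplicated-segment genes in orange, other genes in grey, and the members in red with 95% intervals; the dashed line marks 3 copies to 2, and 1 gene above the upper axis is not drawn. psad1 and por sit within the raised run of segment genes, fdx2 is the outermost chromosome 6 gene tested and the lowest near that tip, and Cab-m7 lies near 0 at the other end.

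psad1 and fdx2 differed in opposite directions between the genotypes and yet varied together among pools of 1 genotype. Wild-type replicate 3 had the lowest signal of its group for both genes and wild-type replicate 2 the highest, and the DpDf pools showed the same order at both ends. With genotype means removed, their log2 values correlated at r = 0.84 over the 8 pools, against -0.071 with the means left in. The other member pairs also had a positive r with genotype means removed, and no r was tested against 0. Their r were 0.77 for psad1 and por, 0.71 for Cab-m7 and fdx2, and 0.55 for psad1 and Cab-m7. For por the r were 0.42 with Cab-m7 and 0.37 with fdx2. These values describe 8 pools that share plantings in pairs. Taken within each array, psad1 minus fdx2, set to 0 at the wild-type mean, ran from -0.22 to 0.25 in wild type and from 0.86 to 1.07 in DpDf. The mean shift was 0.98, a 1.97-fold change in the ratio of the 2 signals, and in single pairs it ran from 0.60 to 1.16. This contrast was not planned and was not tested. It joins the differences of a gene that rose and a gene that fell, both given above, so it is no separate result. How many gene pairs set the groups apart in this way was not counted.

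**Figure D4:**
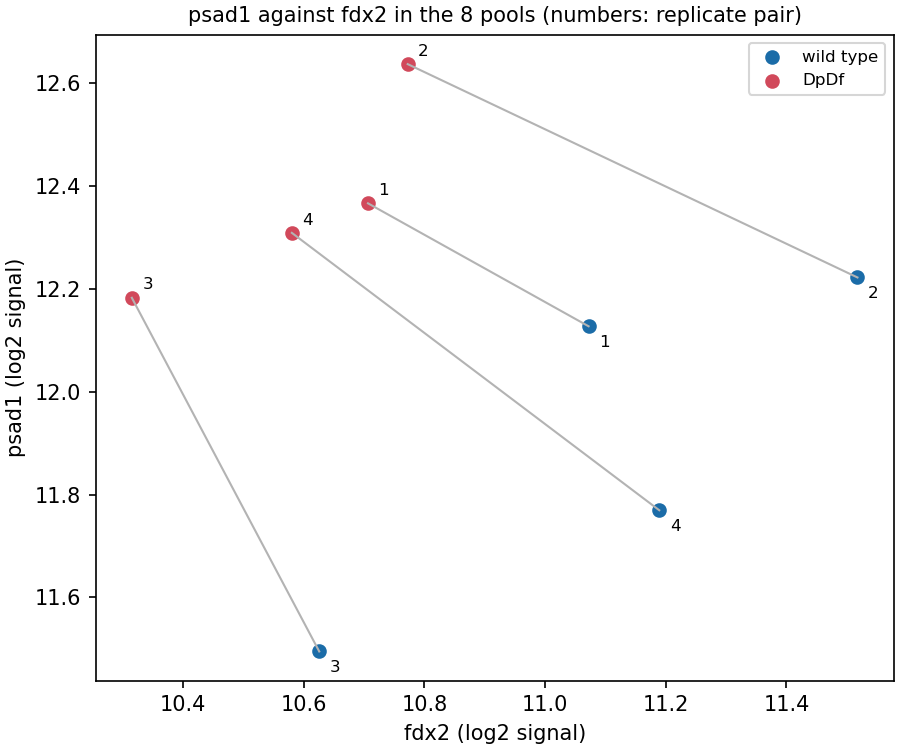
Log2 signal of psad1 (vertical) against fdx2 (horizontal) in the 4 wild-type (blue) and 4 DpDf (red) pools, with lines joining replicate pairs. All 4 lines run up and to the left, while within each genotype the pool of replicate 3 is lowest and that of replicate 2 highest on both axes.

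For no member did the genotype difference itself differ between the 2 seed sources at the threshold (limma interaction term). Differences of signal level between the sources were not tested. In the source of replicates 2 and 4 the log2 difference of fdx2 was -0.68, and in the source of replicates 1 and 3 it was -0.34. The interaction term for fdx2 was 0.34 (SE 0.27, limma adjusted p = 1.00). Cab-m7 differed by 0.036 in the former source and by 0.18 in the latter (interaction 0.15, SE 0.083). For psad1 the values were 0.48 and 0.46, and for por 0.44 and 0.37. Over the whole array limma called 0 of 12335 interaction terms (0% of probe sets), with 247 at an unadjusted p under 0.05.

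Among photosystem and light-harvesting genes, all 9 tested had a higher mean in DpDf by the brightest probe set of each gene. limma with genotype alone called 0 of them, with 2 at an unadjusted p under 0.05 (psad1 and Cab-m7), and with the replicate block it called psad1. Over the whole array 2091 of 12335 probe sets (17.0%) had an unadjusted p under 0.05, so 2 of 9 is near that background. The median log2 difference of the 9 was 0.11, against -0.023 over all probe sets tested, of which 42.8% had a higher mean. For the 7 genes other than psad1 and Cab-m7 the median was 0.088. These genes are bright, and of the 50 brightest probe sets 25 had a higher mean. Without wild-type replicate 3 the median of the 9 was 0.042, and with the RNA quality covariate 0.043. Dimmer tested probe sets of lhcb6 differed by 0.055 and by -0.025, the latter higher in DpDf in only 2 pairs. Apart from the members, the smallest p belonged to psbs1, encoding the photosystem II protein PsbS that acts in energy dissipation. It read 7797, 8305, 6978 and 7418 in the wild-type pools and 7852, 8842, 8171 and 8168 in the DpDf pools. Each DpDf pool was above its own partner, and the difference was 0.12 (SE 0.060, limma adjusted p = 0.370, and 0.157 with the block). psan1, a photosystem I subunit gene, differed by 0.079 (SE 0.052, limma adjusted p = 0.484).

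The relatives of Cab-m7 that were tested encode minor antenna proteins of photosystem II. lhcb5 differed by 0.11, lhcb6 by 0.088 and Lhcb5-2 by 0.056, with limma adjusted p of 0.529, 0.576 and 0.642. Within arrays, Cab-m7 minus Lhcb5-2 differed between genotypes by 0.053, Cab-m7 minus lhcb6 by 0.021 and Cab-m7 minus lhcb5 by -0.00034. None of the differences between Cab-m7 and these 3 relatives passed an exact permutation test (p = 0.171, 0.743 and 1.0; over 5 comparisons of members with relatives the adjusted p were 0.429, 0.929 and 1.0). Leaving out 1 pool, Cab-m7 minus Lhcb5-2 ran from 0.027 (without DpDf replicate 3) to 0.079 (without wild-type replicate 4). psad1 and por had no other family member among the tested genes that the annotation names.

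The ferredoxin and electron transfer genes had differences of both signs. Of 8 tested genes, 3 had a higher and 5 a lower mean in DpDf, with a median log2 difference of -0.056. limma with genotype alone called 0, with 1 of 8 at an unadjusted p under 0.05 (fdx2, against 17.0% of the array), and with the replicate block it called 1 higher (pgr5) and 1 lower (fdx2). The symbol pgr5 is used for a protein of cyclic electron flow around photosystem I. Its brighter probe set read 1545, 2131, 1271 and 1511 in wild type and 1867, 2227, 1636 and 1857 in DpDf, and was higher in all 4 pairs. The log2 difference of pgr5 was 0.25 (SE 0.15, limma adjusted p = 0.443, and 0.0393 with the block). Its other probe set gave 0.27 (adjusted p = 0.0274 with the block in limma).

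The other ferredoxin genes tested, fdx3 and FDX6, are known from maize roots. They differed by 0.026 (SE 0.045) and -0.045 (SE 0.19), with limma adjusted p of 0.820 and 0.939. fdx2 minus fdx3, within arrays, differed between genotypes by -0.53 and fdx2 minus FDX6 by -0.46. Both were lower in DpDf in 4 of 4 pairs, but the exact permutation p were 0.0857 and 0.286 (0.429 and 0.476 adjusted over the 5 comparisons). Without wild-type replicate 3 the difference between fdx2 and fdx3 was -0.70, and without wild-type replicate 2 it was -0.39. The exact permutation p without wild-type replicate 3 was 0.0286, the smallest that test can give, and was not adjusted over the 5 comparisons. The difference between fdx2 and FDX6 ran from -0.31 without wild-type replicate 2 to -0.67 without wild-type replicate 3. With 1 pool left out, its exact permutation p, also unadjusted, ran from 0.143 to 0.486. Among enzymes that draw on ferredoxin or feed it, fnr1, a ferredoxin-NADP+ reductase gene, differed by -0.17 (SE 0.084) and NIR, a nitrite reductase gene, by -0.12 (SE 0.070), with limma adjusted p of 0.350 and 0.416. By their brightest probe sets both were lower in all 4 pairs, as were 18.1% of all probe sets tested. Other tested probe sets of fnr1 differed by -0.071, with 1 pair higher in DpDf, and by -0.076, lower in every pair.

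Of the 4 tetrapyrrole and chlorophyll synthesis genes tested, all had a higher mean in DpDf and por alone was called, in both models. Over the whole array 42.8% of probe sets had a higher mean. The share called was 4.87% with genotype alone and 10.2% with the replicate block. The median of the 4 was 0.123, and that of the 3 without por was 0.117. With the RNA quality covariate of 3' to 5' signal 0 were called. oy1, encoding the ChlI subunit of magnesium chelatase, read 3816, 3292, 3182 and 3061 in wild type and 3843, 3589, 3803 and 3342 in DpDf. It was higher in every pair, though by little in replicate 1, and differed by 0.13 (SE 0.077, limma adjusted p = 0.436). elm1, required for the phytochrome chromophore, differed by 0.12 (SE 0.073) and les22, a uroporphyrinogen decarboxylase gene, by 0.082 (SE 0.12), with limma adjusted p of 0.463 and 0.777. The 3 carotenoid synthesis genes tested differed by 0.16 (psy2, phytoene synthase), 0.075 (zds1, zeta-carotene desaturase) and 0.067 (pds1, phytoene desaturase). limma called 0 of these 3 in either model, with 0 at an unadjusted p under 0.05 and genotype alone, against 17.0% of the array.

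**Figure D5:**
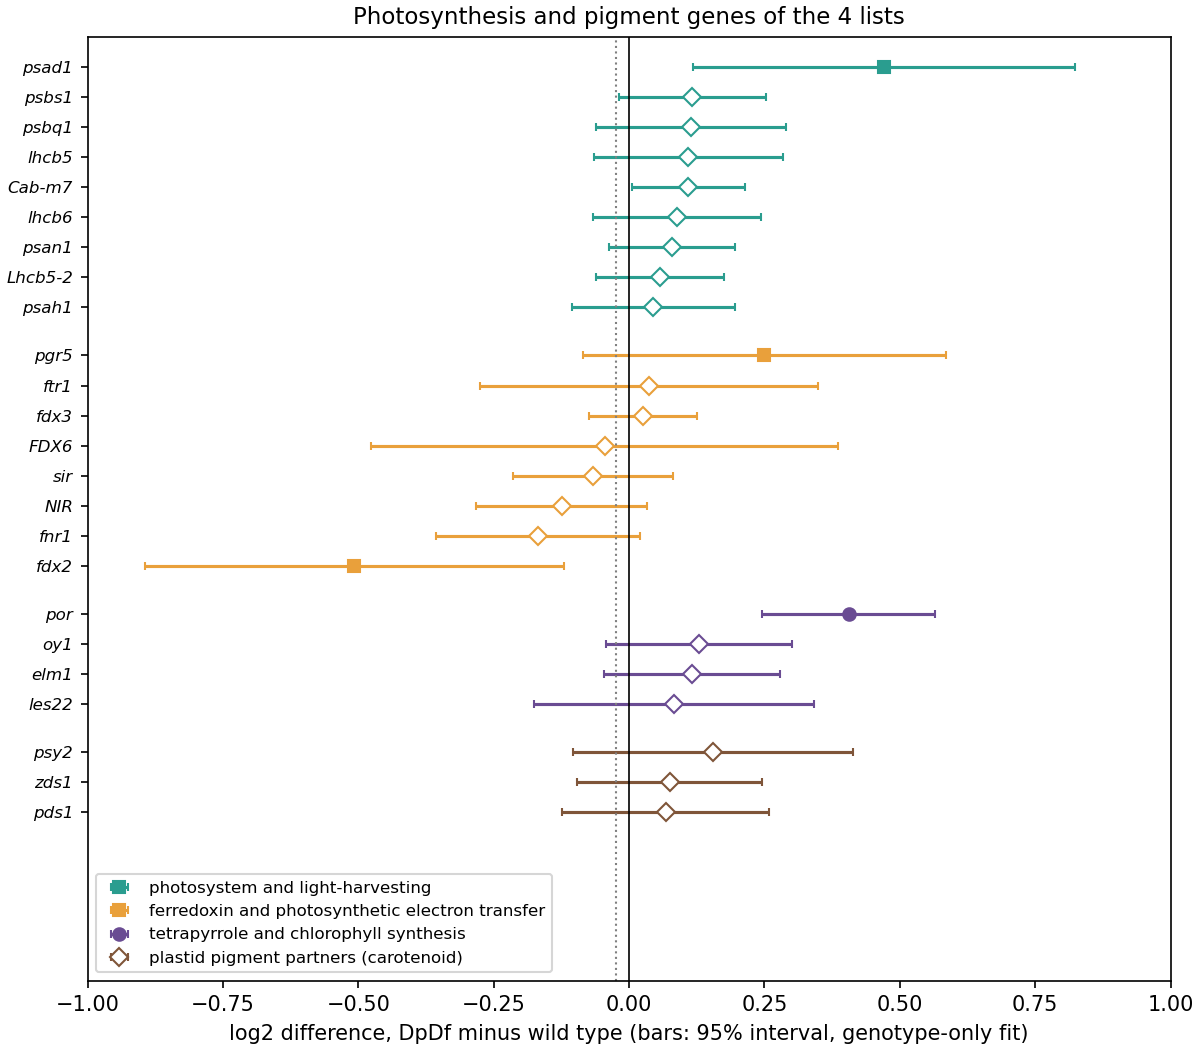
Log2 difference, DpDf minus wild type (horizontal axis), with 95% intervals from limma with genotype alone, for the 24 tested genes of 4 lists; a circle marks a gene called in both models, a square one called only with the replicate block, an open diamond one called in neither, and the dotted line the median of all probe sets tested. psad1, por and fdx2 stand farthest from 0, and the other photosystem genes lie between 0.045 and 0.12.

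Markers of leaf cell types were read beside these genes. The 3 mesophyll markers measured (pep1, pdk1 and mdh6) summed to 21254 to 29947 in wild-type pools and 25723 to 32850 in DpDf pools, and the 3 bundle sheath markers (me3, ssu1 and rca1) to 17562 to 20510 and 19927 to 21978. The 2 meristem markers, kn1 and lg3, summed to 249.1 to 435.1 in wild type and 210.3 to 296.1 in DpDf. All of these ranges overlap between the genotypes. With the replicate block, limma called mdh6 higher (0.23, adjusted p = 0.0489) and kn1 and lg3 lower (-0.29 and -0.53, adjusted p = 0.0387 and 0.0492). The 4 epidermal markers overlapped too, with sums of 3056 to 3776 and 3235 to 4415. Of these, limma called ocl4 lower with the block (-0.31, adjusted p = 0.0259). The other epidermal markers were not called and had both signs: gl1 at 0.15, gl8 at 0.091 and ocl1 at -0.057. Over the whole array, 10.2% of probe sets were called with the block. The part of a shift in tissue makeup in the values of psad1, por and fdx2 was not tested. Of the markers found, 0 lay under the filter on low signal. The root ferredoxin genes fdx3 and FDX6 were also above it in this above-ground tissue, and their summed signal was 8506 to 10261 in wild type and 8579 to 10368 in DpDf.

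A measure of RNA quality moved with genotype. The signal of the 3' end over the 5' end of 4 maize control transcripts was 0.45 to 0.70 on the log2 scale in wild-type pools and 0.66 to 1.16 in DpDf pools, higher in the DpDf pool of each pair. With this measure as a covariate, psad1 differed by 0.30 (limma adjusted p = 0.804), por by 0.43 (0.0803), Cab-m7 by 0.079 (0.866) and fdx2 by -0.83 (0.0695). The measure and the genotype are partly confounded in 8 pools, so their parts cannot be told apart.

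The genes whose signal followed the members most closely were sought among 915 other named genes, by Pearson r of log2 signal over the 8 pools. These values were picked as the highest and are a description. psad1 was followed most closely by glk1, a Golden2-like transcription factor gene on chromosome 9 (r = 0.98, and 0.96 with genotype means removed), then by mdh6 (r = 0.97) and TPT, a triose phosphate translocator gene (r = 0.96). glk1 read 122.6, 136.6, 89.1 and 108.5 in wild-type replicates 1 to 4 and 145.2, 191.2, 143.4 and 155.7 in DpDf. As with psad1, replicate 3 was lowest and replicate 2 highest in both groups. Its log2 difference was 0.48 (SE 0.14, limma adjusted p = 0.102, and 0.00879 with the block).

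For por the closest genes were sig6, a plastid sigma factor gene (r = 0.98), LOC542205 (r = 0.98) and rpp3, an acidic ribosomal protein gene (r = 0.96). All 3 lie in the duplicated segment, and with genotype means removed their r were 0.94, 0.89 and 0.83. The genes closest to Cab-m7 were lip15 (r = 0.87), tha9 (r = 0.85) and mez2 (r = 0.84), which lie on chromosomes 6, 5 and 9. fdx2 was followed by mas1 (r = 0.95), see2b, a legumain-like protease gene (r = 0.88), and rop4, a ROP GTPase gene (r = 0.87). Another gene with the synonym rop4, on chromosome 5, differed by 0.011 (SE 0.051, limma adjusted p = 0.944). This rop4 gene (LOC542758, also rop5, on chromosome 9) fell by 0.29 (SE 0.063, limma adjusted p = 0.0312), while mas1 and see2b differed by -0.30 and -0.28 (limma adjusted p = 0.278 and 0.178; see2b 0.0317 with the block).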

How the data were processed

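The authors deposited 1 linear intensity value for each probe set and array. MAS5 appears in the submitters' processing notes with neither version nor role, and the sources used here do not state the scaling. Array medians ran from 135.9 to 142.4, so no normalization was added, and precision is limited by the number of arrays.

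The 113 array controls among 17734 probe sets stayed out of the tests. Gene names came from the platform annotation (1452 probe sets with 1 gene, 1 with several, 16168 with none), updated by gene number through RefSeq genes (assembly Zm-B73-REFERENCE-NAM-5.0), with synonyms as names. This table was used for names and gene order, without coordinates. The filter on low signal kept the 12335 probe sets whose mean log2 was at or above the 30th percentile (27.0 linear). A gene is read by its brightest probe set.

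Differences of log2 values were tested by limma (version 3.58.1, R version 4.3.3; lmFit, eBayes with trend; genotype as the only term; Benjamini-Hochberg over all probe sets), checked on simulated data. Intervals are 95% intervals. Exact permutation tests are two-sided over 70 assignments and leave the pairs aside. A form that keeps the 4 pairs, with 16 sign flips, cannot give a p under 0.125. The pools of a replicate number come from 1 planting, per the labels; their deviations from group means correlated at r = 0.36, 0.51, 0.56 and 0.33 for replicates 1 to 4, each above the r with any other number, so the numbers pair the samples. Each pool is a biological replicate, per the labels.

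The members and lists were chosen with earlier results of these data known, so no list is independent evidence, and the segment limit at RPL19 was taken from earlier work on them. Lists were patterns matched to symbols and RefSeq synonyms; por1, por2, UMPS and ATP2 matched by name only and were left out. Named genes are the members, list genes called in either model with the smallest p up to 4 per list, family relatives, gene-order neighbours and the 3 genes most correlated with each member. A planned promoter search was not run, as no sequence was used here. Alternatives covered pairing, seed source, normalization, pseudocount, filter, variance trend, RNA quality and leaving out each pool.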

Additional observations from a re-analysis of the deposited data

Results flagged for a closer look

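Of 24 photosynthesis and pigment genes, each looked at in both genotypes (48 groups of 4 pools), 2 groups held a pool far from the other 3; chance alone flags about 1 group in 20. Cab-m7 in DpDf replicate 3 read 18410 against 17930, 17983 and 17987 in the other DpDf pools, a gap of 0.880 of the group's range on the log2 scale, in a group whose whole range was small. psy2, a phytoene synthase gene, read 55.9 in DpDf replicate 1 against 70.9, 71.5 and 72.5 in the other DpDf pools, a gap of 0.912 of the range.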

How the results depend on the processing

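Each result was recomputed under the alternatives, 17 for each member. All 4 members kept their direction in all 17. With the replicate block, psad1 (0.47) and fdx2 (-0.51) passed the threshold, calls over the array went from 601 to 1253, the photosystem list from 0 to 1 and the electron transfer list from 0 to 2; the block changed no other member's call. With the 3' to 5' covariate, por (0.43) missed the threshold, which left 0 genes called in the chlorophyll list, and 326 probe sets were called over the array. Leaving out 1 pool gave 0.33 to 0.58 for psad1, 0.36 to 0.46 for por (called in all 8), 0.063 to 0.13 for Cab-m7 and -0.67 to -0.37 for fdx2, which was called only without wild-type replicate 3; array calls ran from 389 (without wild-type replicate 4) to 643, and electron transfer calls from 0 to 1. The difference between fdx2 and fdx3 ran from -0.70 to -0.39. Those of Cab-m7 from lhcb6 (-0.020 to 0.059) and from lhcb5 (-0.033 to 0.045) changed sign, and the cause was not tested. The photosystem median was 0.043 with the 3' to 5' covariate. In paired form, the 16 sign flips cannot give a p under 0.125, so the replicate block could not bring a comparison of relatives past the threshold.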

Other observations

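Other genes carry por names, and their differences from por were not tested. por1, a synonym of porin1 for the outer membrane channel of mitochondria, differed by -0.019 (SE 0.13, limma adjusted p = 0.962), and por2, a synonym of the tonoplast aquaporin TIP2-3, by -0.51 (SE 0.49, limma adjusted p = 0.658) at a mean signal of 48.8. Of the other genes set aside for their function, UMPS, of pyrimidine synthesis, differed by -0.34 (SE 0.12, limma adjusted p = 0.185) and ATP2, the beta subunit of the mitochondrial ATP synthase, by -0.10 (SE 0.051, limma adjusted p = 0.348). sir, a sulphite reductase gene, was read by probe sets that differed in size: -0.066 for the brightest and -0.33 for a dimmer one (limma adjusted p = 0.194; with the block 0.0334).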
